A study of Bos taurus with 20 samples.

Results

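The genes described here are 39 abundant genes whose mean level stayed within 1.1-fold across 5 time points while bovine muscle cells differentiated. They are treated as candidate reference genes, so the account concerns how far each one varied between replicates, between batches and under other ways of scaling the libraries. The members were taken from 14636 genes with enough reads. They were chosen by their time means, in CPM (a gene's reads scaled to a fixed number of reads per library) on TMM-scaled library sizes. These had to differ by at most 1.1-fold between the highest and the lowest, and the mean of the 5 time means had to be at least 50 CPM. Of the 4168 genes that reached 50 CPM, these 39 were 0.936%, and they were 0.266% of all genes kept. TMM (trimmed mean of M values) is a scaling that sets library sizes so that most genes show no change on average. The time means chose the members, so steadiness over time is a description and not a finding.

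Satellite cells, labelled as muscle progenitor cells of the Belgian Blue breed, were grown on collagen-coated flasks with 20% fetal bovine serum and then moved to medium with 2% serum. They were harvested at 0, 24, 48, 72 and 96 h, with 4 libraries (replicates A to D) at each time. Per the labels, A and B were batch 1 and C and D batch 2, so each batch gave 2 libraries at every time point and 10 in all. The series describes the replicates as biological, and the labels do not name animals, so p-values measure the spread between these cultures. Total counts ranged from 21100797 to 41998509 per library. The gene table given for this work paired 0 of the file's Ensembl identifiers with a symbol. No function, position, promoter or protein can therefore be given for a member, and the labelled cell type could not be checked against marker genes.

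Reference genes, often called housekeeping genes, serve as the denominator when the level of another gene is compared between samples, for example in quantitative PCR. A useful one keeps a constant level across the conditions compared and varies little between replicates. Muscle differentiation is a demanding setting for this. Satellite cells that lose serum leave the cell cycle, fuse into multinucleate myotubes and fill with contractile protein, and the messages for that protein come to take a large part of the mRNA. Sequencing gives each gene's share of the reads, so a gene whose amount per cell is constant loses share when other genes gain it. The counts give no amount per cell, and in bulk samples fewer cells of a type and less RNA per cell cannot be told apart.

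Across the 39 genes the ratio of the highest to the lowest time mean ran from 1.017 to 1.0998, with a median of 1.08. The other 4129 genes of at least 50 CPM had a median ratio of 1.75. The mean level of the members lay between 51.4 and 549 CPM, with a median of 111 CPM, and the lowest count of any member in any library was 973 reads. Gene lengths are not in the file, so CPM values state the read support of a gene and do not rank genes by number of transcripts. No time point stood out as the peak of the members: 12 were highest on average in the 96 h libraries, 10 before the serum change, 8 after 72 h, 7 after 48 h and 2 after 24 h. As for the lowest mean, 9 members each had it at 24, 48 and 72 h, while 7 had it at 0 h and 5 at 96 h.

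None of the 39 was called across the 5 time points (edgeR quasi-likelihood test with Benjamini-Hochberg adjustment, 0 calls, against 92.4% of all genes kept and 97.1% of those with at least 50 CPM), and 0 had an unadjusted p under 0.05. DESeq2 called 3 of the 39 members across the time points, against 13515 of all 14636 genes. The rule fixed most of this outcome and nothing is read from it. A missed threshold does not show that levels were equal. The 95% intervals of the 10 differences between time points, taken one at a time, allowed a change of at most 1.12-fold for the member with the narrowest limits and 1.22-fold for the one with the widest. These limits are centred on the differences that chose the genes, so they describe the selected values and bound no change in other libraries.

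**Figure D1:**
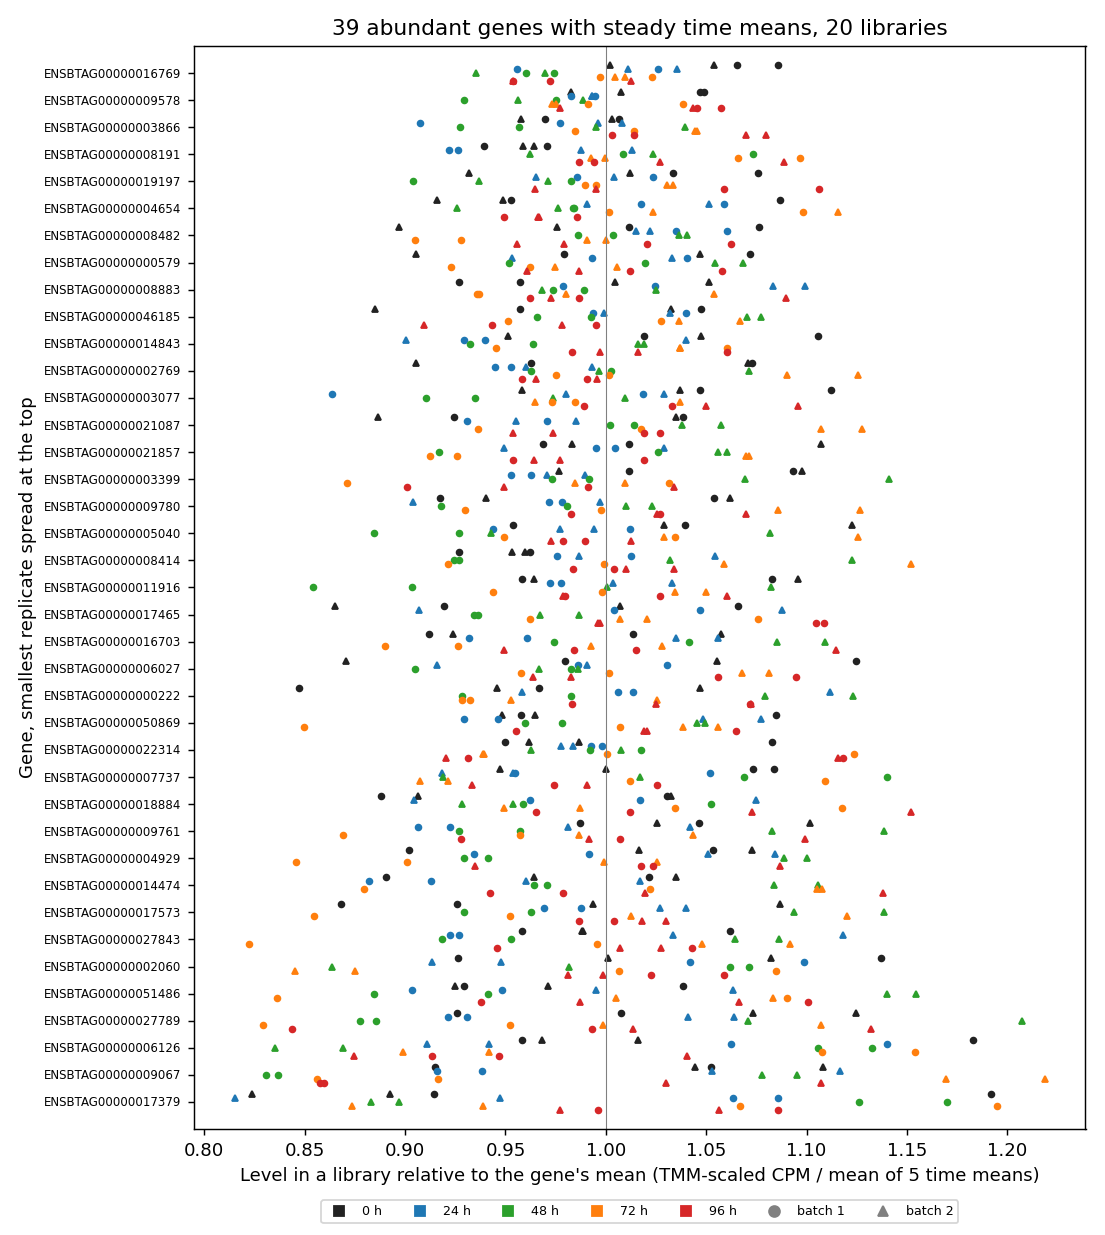
Level of each of the 39 genes in each of the 20 libraries (horizontal axis, CPM divided by the gene's mean, no unit), with genes ordered by replicate spread from smallest (top) to largest (bottom), colours for time points and symbols for batches. The points of a gene widen from the top row, where the highest library was 1.16 times the lowest, to the bottom row, where it was 1.47 times, although every gene's time means lie within 1.1-fold.

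The rule did not use the spread between replicates directly. Genes with wide replicates are less likely to keep 5 means within 1.1-fold, so the spread is not independent of the choice. It was measured for each gene as the SD over the 4 libraries of a time point divided by their mean, combined over the 5 time points as a root mean square. ENSBTAG00000016769 had the smallest spread of the 39, 2.7%. It measured 94.1, 95.9, 88.5 and 93.1 CPM in replicates A to D at 0 h, then 90.6, 84.4, 91.4 and 89.3 CPM at 24 h and 84.8, 86.1, 82.6 and 85.6 CPM at 48 h. It measured 90.4, 88.0, 89.1 and 88.7 CPM at 72 h and 85.9, 84.3, 89.4 and 84.2 CPM at 96 h. The libraries at 0 h were the highest as a group, those at 48 h the lowest, and the 0 h and 96 h groups overlapped only through replicate C of each.

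This gene was also the single member called for 96 h against 0 h, with a log2 difference of -0.11, a standard error of 0.04 and a 95% interval of -0.21 to -0.02 (edgeR quasi-likelihood test, adjusted p = 0.0237, against 80.4% of all genes called). Its ratio of time means was 1.096, near the limit. The rule used the 0 h and 96 h means, so this call is a description and nothing is read from it. The call was lost without the low-count filter (edgeR adjusted p = 0.0993) and without replicate B at 0 h (0.0738), replicate B at 96 h (0.0677) or replicate D at 96 h (0.0615). Within batches the difference was -0.16 in batch 1 (edgeR adjusted p = 0.0353) and -0.07 in batch 2 (0.433). The gene with the steadiest replicates among the 39 was therefore not the one with the steadiest time means.

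ENSBTAG00000009578 came next, with a spread of 2.79% and time means of 112 ± 3.53, 109 ± 0.600, 106 ± 2.83, 109 ± 3.33 and 113 ± 3.97 CPM from 0 h to 96 h (SD, n = 4 each). Its lowest library, at 102 CPM, and its highest, at 116 CPM, differed 1.14-fold, the smallest such span among the 39. ENSBTAG00000003866 had a spread of 3.85% and time means of 52.5 ± 1.29, 51.8 ± 2.40, 52.2 ± 2.59, 54.5 ± 1.55 and 55.6 ± 2.06 CPM (SD, n = 4 each). ENSBTAG00000008191 had a spread of 4.22% and went from 79.0 ± 1.11 CPM before the serum change to 85.6 ± 4.20 CPM after 72 h, with 84.4 ± 3.83 CPM in the last samples (SD, n = 4 each). For both of these genes the later time means were the higher ones, with ratios of time means of 1.07 and 1.08.

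The members with the most reads were ENSBTAG00000003399 and ENSBTAG00000008482. In time order, ENSBTAG00000003399 averaged 573 ± 33.1, 532 ± 8.55, 573 ± 42.3, 535 ± 39.2 and 532 ± 31.3 CPM (SD, n = 4 each). Its libraries ran from 478 CPM in replicate A at 72 h to 626 CPM in replicate C at 48 h, and the libraries of every later time point overlapped with those of 0 h. ENSBTAG00000008482 was lowest at 72 h, averaging 455 ± 22.2 CPM, and highest at 24 h, averaging 491 ± 9.48 CPM (SD, n = 4). With at least 8217 reads in every library these genes had an expected counting error under 1% (0.807% and 0.869%), yet their spreads were 5.98% and 4.76%.

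Going by medians, the sampling of reads was a small part of the spread. It was a larger part in the 4 members with the smallest spreads. Their expected counting errors were 2.02% for ENSBTAG00000016769, 1.81% for ENSBTAG00000009578, 2.59% for ENSBTAG00000003866 and 2.09% for ENSBTAG00000008191. The spreads beside them were 2.7%, 2.79%, 3.85% and 4.22%. Over the 39 genes the counting error expected from the reads had a median of 1.79% and the measured spread a median of 6.46%, with a range of 2.7% to 13.3%. The other genes of at least 50 CPM had a median spread of 7.05%, and all genes kept had a median of 10.5%. Of the members, 26 lay below the median of the other abundant genes, 7 had a spread under 5% and 4 had one over 10%. The rule tends to leave out genes with wide replicates, so this comparison is a description. Steady time means did not mark out the genes with the tightest replicates. As many as 1679 of the 4129 other abundant genes had a spread at or below the members' median, and 17 had a smaller spread than any member. The biological coefficient of variation estimated by edgeR gave a similar picture, with medians of 5.97% for the members and 6.40% for the other abundant genes.

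**Figure D2:**
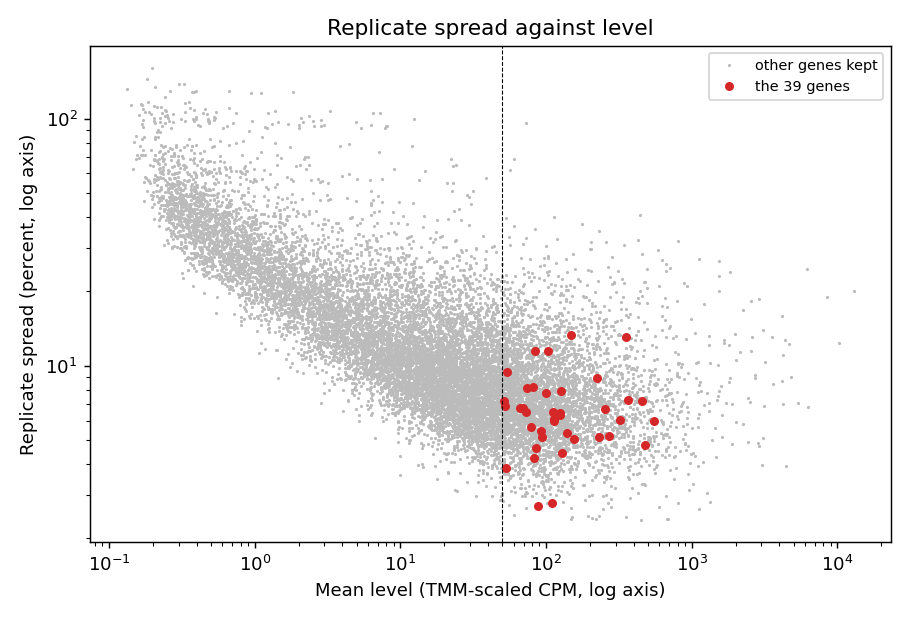
Replicate spread (vertical, percent, log axis) against mean level (horizontal, CPM, log axis) for genes kept with reads at all time points, with the 39 members in red and the 50 CPM limit dashed. The members lie between 2.7% and 13.3%, inside the cloud of other abundant genes, whose median is 7.05%.

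The largest spreads belonged to ENSBTAG00000017379 (13.3%), ENSBTAG00000009067 (13.1%), ENSBTAG00000006126 (11.5%) and ENSBTAG00000027789 (11.4%). In each of these 4 genes the spread around the batch means was smaller, 8.48%, 4.39%, 6.87% and 6.82%. Over all 39 the median fell from 6.46% to 5.18% when batch means were taken out.

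The batch difference was tested in the model across all genes and was not used by the rule. Each batch held only 2 replicate letters, and the model counted every library as a separate culture. If a letter marks related cultures, the p-values and the SDs over 10 libraries do not measure the spread between letters. It was called for 13 of the 39 members (33.3%), against 19.2% of all genes kept and 29.8% of genes with at least 50 CPM (edgeR quasi-likelihood test, adjusted p under 0.05). The share of members was thus near that of other abundant genes. Of the 13, 9 were higher in batch 2 (against 10.9% of all genes) and 4 were lower (against 8.36% of all genes). In 9 of the 13 the direction was the same at all 5 time points. The size of the difference in called members ran from 1.07-fold to 1.23-fold, with a median of 1.11-fold. In the 26 members not called the estimate was at most 1.08-fold, and their 95% intervals allowed batch differences of up to between 1.04-fold and 1.16-fold.

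ENSBTAG00000009067 had the largest batch difference. In time order, its batch 1 libraries measured 373 and 324, 325 and 333, 297 and 295, 304 and 325, and 304 and 305 CPM. Its batch 2 libraries measured 370 and 393, 373 and 396, 388 and 382, 432 and 415, and 392 and 365 CPM. The batches did not overlap at any time except 0 h, where replicate A of batch 1 stood above replicate C of batch 2. The means were 318 ± 23.5 CPM in batch 1 and 391 ± 20.5 CPM in batch 2 (SD, n = 10 each, all time points), which is 0.30 ± 0.04 on the log2 scale (SE, edgeR adjusted p = 2.52e-05). The time means of ENSBTAG00000009067 nevertheless lay between 340 and 369 CPM, a ratio of 1.08, since each time point held the same number of libraries from either batch.

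ENSBTAG00000017379 differed in the opposite direction. From 0 h to 96 h the batch 1 libraries gave 136 and 177, 162 and 158, 174 and 168, 178 and 159, and 162 and 148 CPM. Those of batch 2 gave 133 and 123, 141 and 121, 131 and 133, 140 and 130, and 145 and 157 CPM. The batches overlapped at 96 h only. The means were 162 ± 13.1 CPM in batch 1 and 135 ± 10.8 CPM in batch 2 (SD, n = 10 each), which is -0.26 ± 0.05 on the log2 scale (SE, edgeR adjusted p = 0.00092).

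**Figure D3:**
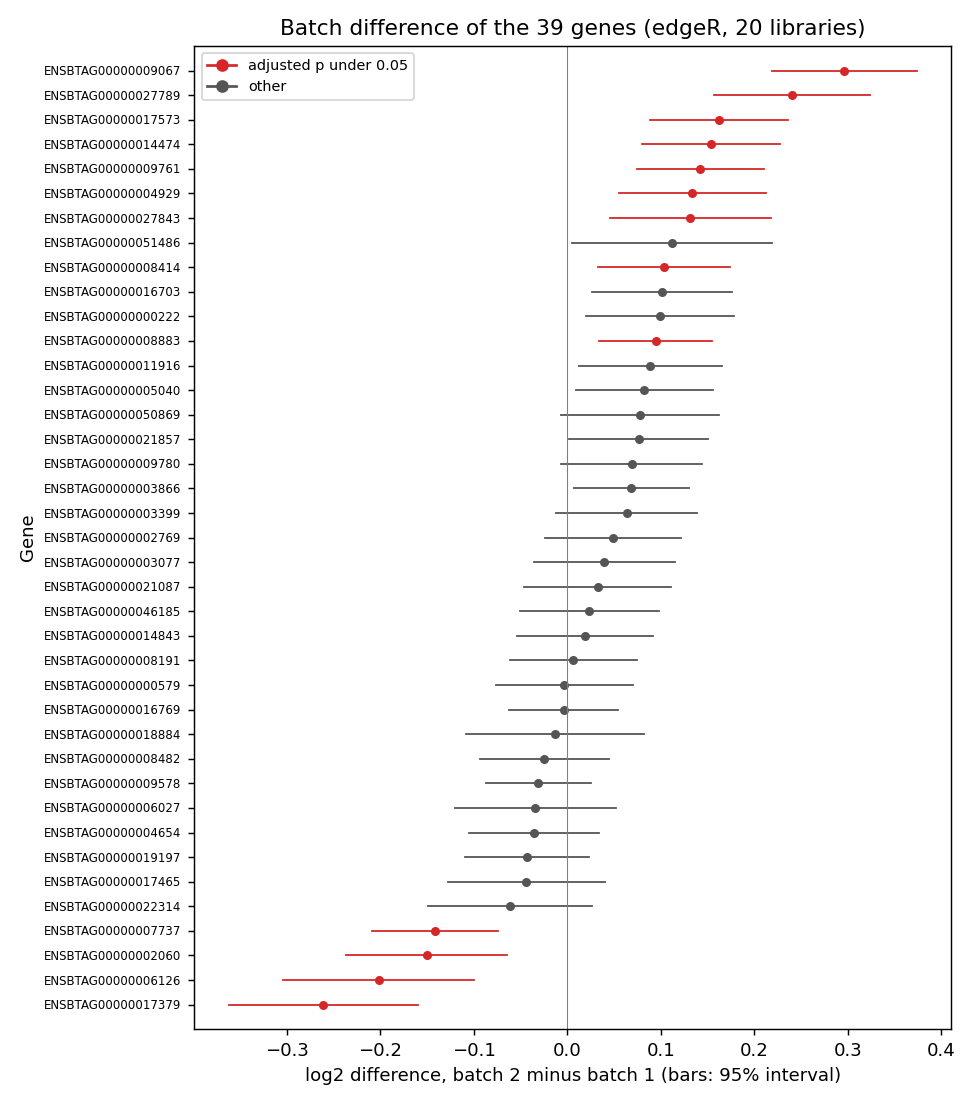
Difference between batches for each of the 39 genes (horizontal, log2 of batch 2 over batch 1, with 95% intervals from edgeR on 20 libraries), ordered by size, with the 13 called genes in red. The estimates run from -0.26 for ENSBTAG00000017379 to 0.30 for ENSBTAG00000009067.

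Whether the time course itself differed between batches was tested with the batch by time terms. It was called for 0 of the 39 members, against 0.00683% of all genes (1 gene), and at an unadjusted p under 0.05 the counts were 3 members (7.69%) and 9.72% of all genes. DESeq2 also called 0 members, against 22 of 11231 genes, with 3 members at an unadjusted p under 0.05. The smallest adjusted p of a member in the edgeR test was 0.505.

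The replicates of the members did not vary independently of one another. Within time points, 66.0% of the members' variance in log2 CPM lay on a single axis, on which 31 genes moved one way and 8 the other. Among all genes of at least 50 CPM the first such axis held 44.5%, and it placed the 20 libraries almost as the members' axis did (Pearson's r = 0.982 in size, from the same libraries). The members' axis was thus nearly that of abundant genes in general. ENSBTAG00000009067 and ENSBTAG00000017379 had the largest weights of opposite sign, 0.327 and -0.337, while ENSBTAG00000009578 and ENSBTAG00000016769 had weights of 0.000133 and -0.00302. On this axis 8 of 10 batch 1 libraries lay below 0 and 8 of 10 batch 2 libraries above it. The lowest library was replicate A at 72 h, at -0.884, and the highest was replicate C at 48 h, at 0.669. The library with the most counts was also the lowest on the axis at 4 of 5 time points, the exception being 24 h, where totals were within 24911227 to 26770237. Within a batch and time point the deeper of 2 libraries was the lower one in 8 of 10 pairs. Over the 20 libraries, centred within time points, the position on the axis and the log2 total count had Pearson's r = -0.75 (permutation p = 0.00143) and Spearman's rho = -0.70 (permutation p = 0.00427). Labels were permuted two-sided within time points, and adjusted over the 2 relations computed these permutation p-values were 0.00286 and 0.00854. Libraries were exchanged across batches, so these p-values do not separate depth from batch. The other relation, with the log2 TMM factor, had r = -0.36 and rho = -0.29 (permutation p = 0.177 and 0.26, the same after adjustment). Without the 2 libraries farthest from the median depth, r with the total count was -0.68. Batch and depth both moved with these deviations, and their separate parts in them were not tested.

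**Figure D4:**
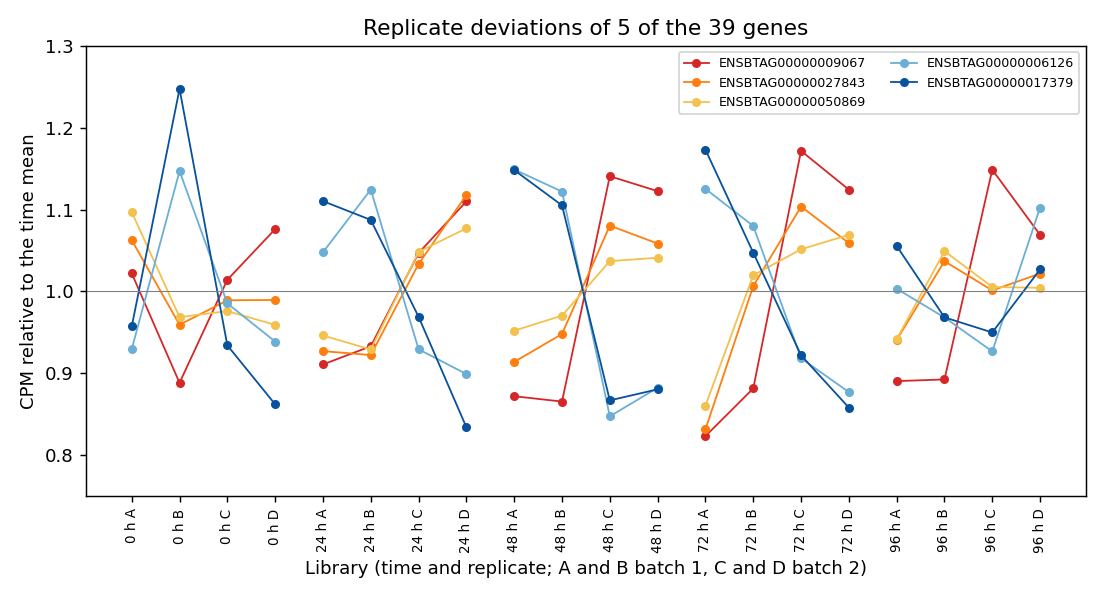
CPM relative to the mean of the time point (vertical, ratio) for 5 of the 39 genes in the 20 libraries (horizontal, A and B being batch 1 and C and D batch 2). ENSBTAG00000009067, ENSBTAG00000027843 and ENSBTAG00000050869 mostly lie on the opposite side of 1 from ENSBTAG00000017379 and ENSBTAG00000006126, most widely in replicate A at 72 h, where 3 genes are below 1 and the other two above it.

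A reference gene is used as a ratio to another gene, and the ratio of counts of a pair within a library does not depend on how libraries are scaled. For each of the 741 pairs of members the SD of the log2 ratio over the 20 libraries was computed. It ran from 0.0386 to 0.335 with a median of 0.112, and 143 pairs kept their highest and lowest ratio within 25% of each other over all libraries. The mean over partners, known as the M value of the geNorm method, ran from 0.101 for ENSBTAG00000003866 to 0.220 for ENSBTAG00000017379.

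The pair with the smallest SD over the 20 libraries was ENSBTAG00000027843 and ENSBTAG00000050869. That SD includes the time means, which chose the genes. Within time points the SD of this pair was 0.0420, and the smallest was 0.0366 for ENSBTAG00000008482 and ENSBTAG00000019197, a pair picked out after the values were seen. The ratio of ENSBTAG00000027843 to ENSBTAG00000050869 averaged 1.249 ± 0.0343, 1.23 ± 0.0326, 1.23 ± 0.0459, 1.23 ± 0.0443 and 1.22 ± 0.0151 from 0 h to 96 h (SD, n = 4 each). Over all libraries it stayed between 1.18 in replicate A at 48 h and 1.298 in replicate C at 72 h, a span of 1.098-fold. ENSBTAG00000027843 was also the member with the flattest time means, 81.1 ± 3.57, 81.2 ± 7.62, 81.6 ± 6.67, 80.3 ± 9.59 and 81.7 ± 3.46 CPM (SD, n = 4 each), a ratio of 1.02, and is singled out for that after its values were seen.

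Its replicates were not flat. ENSBTAG00000027843 measured 86.2, 77.8, 80.3 and 80.3 CPM in replicates A to D at 0 h, 75.3, 74.9, 83.9 and 90.8 at 24 h and 74.6, 77.4, 88.2 and 86.4 at 48 h. At 72 h it measured 66.8, 80.9, 88.7 and 85.1 CPM and at 96 h 76.8, 84.7, 81.8 and 83.5 CPM. The lowest library, replicate A at 72 h, and the highest, replicate D at 24 h, differed 1.36-fold, and from 24 h to 72 h both batch 2 libraries lay above both of batch 1. Its spread was 8.18%, and its batch difference was called at 0.13 ± 0.04 on the log2 scale (SE, edgeR adjusted p = 0.0292). That call was marginal: leaving out any 1 of 10 libraries (A, B or D at 24 h, A, B, C or D at 48 h, A or C at 72 h, or A at 96 h) ended it, with edgeR adjusted p between 0.0502 and 0.0653 and log2 differences of 0.11 to 0.13.

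The replicates of ENSBTAG00000027843 and ENSBTAG00000050869 moved together. The geometric mean of ENSBTAG00000027843 and ENSBTAG00000050869 had a spread of 7.35%, between the 8.18% and 6.75% of its parts. The geometric mean of ENSBTAG00000009067 and ENSBTAG00000017379, the pair with the largest SD, had a spread of 3.68%, where its parts had 13.1% and 13.3%. Their ratio averaged 1.98 ± 0.306 in batch 1 and 2.90 ± 0.298 in batch 2 (SD, n = 10 each), with extremes of 1.70 in replicate A at 48 h and 3.26 in replicate D at 24 h. The first 4 genes by replicate spread had a joint geometric mean with a spread of 1.92% and a ratio of time means of 1.04. The last 4 had a joint spread of 3.16% and a ratio of 1.03. For all 39 together these values were 2.79% and 1.02. These panels were formed after the values were seen and are a description of these libraries.

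The steadiness of all 39 genes held relative to TMM scaling. As a plain share of the reads, the 39 genes together made up 0.715 ± 0.0202%, 0.737 ± 0.01003%, 0.609 ± 0.0152%, 0.566 ± 0.0176% and 0.537 ± 0.00665% of counts in time order (SD, n = 4 each). The 4 libraries at 96 h lay below all libraries at 0, 24 and 48 h. Over the same times the 100 genes with the most reads in each library went from 18.9 ± 0.480% through 18.2 ± 0.266%, 24.2 ± 0.283% and 27.3 ± 0.451% to 30.4 ± 0.265% of counts (SD, n = 4 each). The mean TMM factor, by which library sizes are multiplied, took the values 1.13, 1.19, 0.968, 0.903 and 0.854 over the same times. How far the share of the 100 genes accounts for these factors was not tested.

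With library sizes alone, 0 of the 39 genes stayed within 1.1-fold. Their ratios of time means ran from 1.29 for ENSBTAG00000014474 to 1.49 for ENSBTAG00000006126, and all 39 had lower means at 96 h than at 0 h, with a median of 0.763 times the 0 h level. The median log2 change over all genes at 96 h was then -0.41, against -0.00217 with TMM. The rule and TMM together fix that the members move with the median gene here, and nothing is read from it. With library sizes that leave out the 10 or the 100 genes with most counts, the median at 96 h was 0.835 or 0.914 times the 0 h level, and again 0 of 39 stayed within the limit. These last settings were added after the data were seen. In a planned setting, TMM factors computed without the 10 genes with most counts kept all 39 within 1.1-fold, with a largest ratio of 1.0999.

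Scalings closer to TMM kept more of them. RLE, the median-ratio scaling of DESeq2, left 30 of the 39 within 1.1-fold with a largest ratio of 1.11, and upper quartile scaling left 13 with a largest ratio of 1.19. All of TMM, RLE and upper quartile scaling kept 7. The 25 genes that meet the rule under library sizes alone included 0 of the 39, and under TMM their own ratios ran from 1.28 to 1.46. No added RNA standard is named in the labels, so the counts do not say which of these sets is constant per cell.

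**Figure D5:**
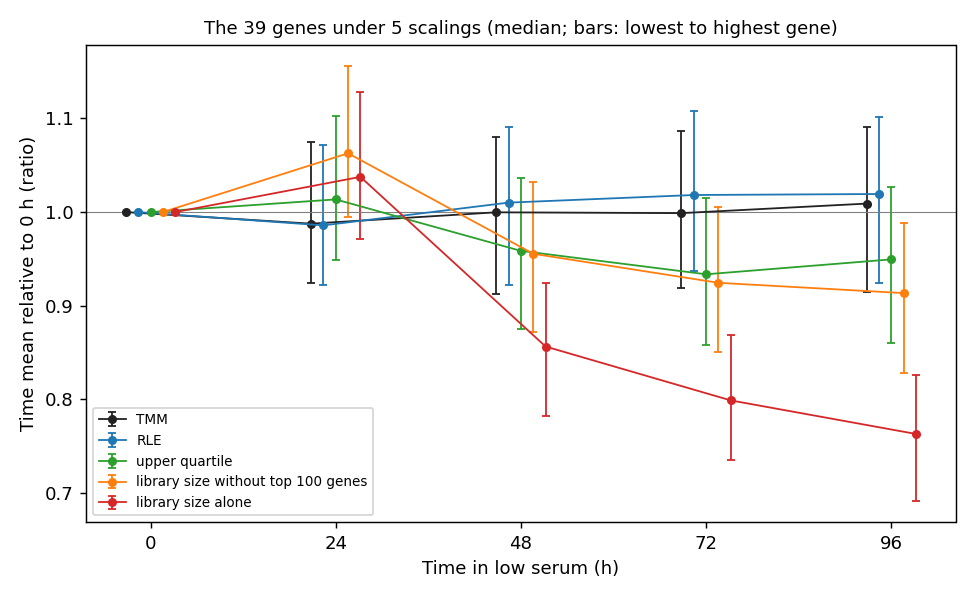
Time means of the 39 genes relative to 0 h (vertical, ratio; points are the median gene and bars run from the lowest to the highest gene) over time in low serum (horizontal, h) under 5 scalings. TMM and RLE medians stay between 0.986 and 1.02, while with library size alone the median reaches 0.763 at 96 h.

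How far steadiness carried over to other libraries was seen by choosing genes in one batch and measuring them in the other. The rule applied to batch 1 alone gave 29 genes. In batch 2 their ratios had a median of 1.16 and a highest value of 1.254, with 5 within 1.1-fold and 23 within 1.2-fold. Batch 2 alone gave 30 genes, and in batch 1 their median ratio was 1.16 and the highest 1.28, with 5 within 1.1-fold and 27 within 1.2-fold. The 5 within 1.1-fold are the same genes in both directions, so the second count adds nothing to the first. All genes of at least 50 CPM had median ratios of 1.73 in batch 2 and 1.76 in batch 1. Of these genes, 0.723% lay within 1.1-fold in batch 2 and 0.695% in batch 1. Of the 39 members themselves, 15 met the rule in batch 1 alone, 17 in batch 2 alone and 5, the same 5 genes, in both. With 2 libraries per time point these means are less precise than those of 4.

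Leaving out single libraries gave between 32 and 44 genes by the rule, of which 30 to 39 were among the 39. The rule gave the fewest genes without replicate C at 48 h, and the fewest of the 39 were kept without replicate A at 72 h. Of the 39 members, 10 met the rule in all 20 of these sets, and the least frequent, ENSBTAG00000006126, met it in 12.

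Only ENSBTAG00000003866 and ENSBTAG00000022314 met the rule under TMM, RLE and upper quartile scaling, in either batch alone and without any single library, a selection made after the values were seen. ENSBTAG00000022314 averaged 52.4 ± 3.17, 52.0 ± 0.486, 52.3 ± 1.26, 52.6 ± 4.58 and 53.7 ± 5.81 CPM from 0 h to 96 h (SD, n = 4 each). Its replicate spread of 6.87% was above the members' median of 6.46%, and its M value of 0.144 was above their median of 0.115. Its libraries at 96 h measured 58.8, 49.0, 58.7 and 48.4 CPM, the widest group, while those at 24 h lay between 51.4 and 52.5 CPM. Their batch differences of 0.07 and -0.06 on the log2 scale were not called (edgeR adjusted p = 0.104 and 0.318), with 95% intervals of 0.01 to 0.13 and -0.15 to 0.03. The ratio of the first to the second stayed between 0.888 and 1.19 over the 20 libraries. Both sat close to the lower limit of level, at 53.3 and 52.6 CPM, and with library sizes alone their ratios of time means were 1.297 and 1.345.

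The limits of the rule cut through a continuous range of values. Just inside the ratio limit were ENSBTAG00000017465 at 1.0998 and 2 further genes at 1.096 and 1.097, and just outside were ENSBTAG00000000848 at 1.1023 and 2 more at 1.1023 and 1.1029. Just inside the level limit was ENSBTAG00000018884 at 51.4 CPM, and just outside was ENSBTAG00000009084 at 49.8 CPM. A limit of 1.2-fold would admit 239 genes and one of a 5% difference would leave 4. Of 119 genes of at least 50 CPM that were not called at any time, 80 lay outside the ratio limit, with a median spread of 8.84%.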

How the data were processed

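PolyA RNA from 20 cultures was sequenced with a stranded kit to 75 bp, per the labels' protocols. The deposited values are raw read counts per gene. Per the submitters' processing notes, STAR 2.7, featureCounts and build bosTau9 were used. The sources used here do not give parameters, strand setting or annotation, so reads shared with overlapping, antisense or near-identical genes could not be assessed.

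Low-count genes were removed with the filterByExpr function of edgeR 4.0.16 under R 4.3.3, grouped by time point (minimum count 10, total 15). This left 14636 of 27607 genes, whose libraries were scaled by TMM. The quasi-likelihood model had terms for time and batch, used every library and estimated dispersions robustly. Batch, batch by time and time terms were tested two-sided with Benjamini-Hochberg adjustment over all genes, calling at 0.05. DESeq2 1.42.0 was an alternative. Pair ratios used counts plus 0.5. The batch test was tested on simulated data with known differences, and the rule and the spread on constructed values. Permutation tests drew 100000 permutations.

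The members, lists and tests were chosen with earlier results of these data known. Genes named by rule are the 4 with the smallest replicate spread, 2 with the highest level, 2 with the largest spread, 2 with the largest called batch difference, those nearest each limit, the extremes under library sizes and the steadiest pair. ENSBTAG00000019197, ENSBTAG00000022314 and ENSBTAG00000027789 were named after their values were seen. Lists of textbook reference genes, gene groups and cell type markers, and promoter and protein features, were planned but not used, since no identifier had a symbol.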

Additional observations from a re-analysis of the deposited data

Results flagged for a closer look

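For 15 named members and 4 measures per library, the 4 replicate values of each time point were checked for a single distant value with Dixon's criterion, 95 sets in all. ENSBTAG00000019197 and ENSBTAG00000027789 were not among the members checked. The criterion marked 6 of the sets, and about 1 set in 20 is marked by chance. ENSBTAG00000050869 had 71.3 CPM in replicate A of the 0 h samples, while B, C and D had 62.3 to 63.4 CPM. ENSBTAG00000009578 had 107.8 CPM in replicate B of the 24 h samples, just under the 108.9 to 109.1 CPM of A, C and D. The other sets concern replicate C. Its TMM factor was 0.948 after 48 h (A, B and D 0.972 to 0.976) and 0.837 after 96 h (A, B and D 0.858 to 0.861). Its 100 most read genes took 24.6% of counts after 48 h, where A, B and D had 24.0% to 24.1%, and 30.8% after 96 h, where they had 30.2% to 30.3%. Without replicate C the rule gave 32 genes when it was left out after 48 h, and 42 when it was left out after 96 h.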

How the results depend on the processing

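Of 254 values recomputed under other settings, 220 stayed on the same side of the test or within 1.5 times the reported count or 1 SD of the reported spread, and 34 did not. That SD was taken over the median spreads of the 5 time points and was 1.33 percentage points. It was wide enough that 5.18% around batch means, against 6.46%, counted as unchanged. Most of the 254 values came from leaving out single libraries, so they overlap. Others were batch by time counts, all 0, or batch differences of ENSBTAG00000009067 and ENSBTAG00000017379, chosen as the largest. The tally is therefore not a count of independent checks. The rule gave 25 genes with library sizes alone, 4 at a limit of 5%, 239 at 1.2-fold, 72 at 20 CPM, 22 at 100 CPM, and 32 to 44 without single libraries. The number of the 39 members within 1.1-fold was 0 with library sizes alone, 13 with upper quartile scaling, 0 with library sizes without the 10 or without the 100 most read genes, and 30 to 39 without single libraries. Members called at any time numbered 2 with RLE, 39 with library sizes alone, 21 with upper quartile scaling, 3 in batch 1 alone, 1 in batch 2 alone and 3 with DESeq2, and 0 to 3 without single libraries (0 h A and C, 24 h B, 72 h A and 96 h C gave more than 0). For 96 h against 0 h the counts were 2, 39 and 11 under the same scalings, 0 without the low-count filter, 3 in batch 1 alone and 3 with DESeq2, and 1 to 4 without single libraries (0 h A, C and D, 24 h C and 96 h B and D gave 2 or more). The cause of these differences was not tested. Over all genes, DESeq2 called 13515 of 14636 at any time and 11715 of 14636 for 96 h against 0 h. Between batches it called 3148 of 13784. Shares of all genes were not computed for the other settings, so nothing about the members is read from these counts. Calls between batches ranged from 11 to 14 under other settings and from 10 to 19 without single libraries, and batch by time calls were 0 in all settings run. The median replicate spread was 5.01% in batch 1 alone and 5.0% in batch 2 alone, and 5.91% to 6.63% without single libraries.

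Libraries of the same letter were not treated as pairs. Deviations correlated above 0.1 in 22 of 40 same-letter pairs (median 0.14, range -0.35 to 0.53), and for 8 of 20 libraries the best match was one with the same letter. With the letter as a replicate block in place of batch, 13 members were called between batches, 0 at any time and 1 for 96 h against 0 h, the same counts as without it. That fit compares the letters against the spread left within them, so it cannot show that batch calls hold beyond these letters. Shares of all genes were not computed for it, and nothing about the members is read from its counts. The expected counting error was at most 2.65% for any member, which covers the sampling of reads only. Tests of textbook reference genes were not run.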
